A study of Mus musculus with 2 samples.

Results

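The TGF-β and BMP signalling genes were described in cultured primary mouse brain pericytes (PCs), the mural cells that sit on capillaries. They were chosen by symbol as the TGF-β, BMP, GDF and activin ligand genes, their receptors, the SMAD genes and *Id1* to *Id4*, without *Bmp1*, which encodes a protease. The rule found 51 of the 31053 genes listed, of which 27 encode ligands, 12 receptors and 12 effectors. Single-cell RNA-sequencing was compared between passage 5 (PC5) and passage 20 (PC20), with 1 library each. Both cultures came from pooled brains of 6 female wild type C57BL/6N mice of 6 to 8 weeks. The study's methods give a separate isolation for each passage, so passage and isolation cannot be told apart. Cells were grown first in an endothelial growth medium and then in a pericyte medium.

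The study's filter on cells (above 1000 genes, below 20% of UMIs from mitochondrial genes) left 9950 cells in PC5 and 4749 in PC20. Each UMI, or unique molecular identifier, marks 1 captured RNA molecule. Total depth was 223054273 UMIs for PC5 and 191122251 for PC20 (medians of 21700 and 33424 per cell), and 20 barcodes occurred in both libraries. Levels are given as UMIs per 1000000 UMIs of the library (CPM). These UMIs are counted at the 3′ end and do not scale with transcript length. Other differences in capture and counting between genes were not estimated. Shares and rankings across genes are therefore those of counted UMIs. With 1 library per passage there is no replicate and no test between passages. Intervals are 95% and cover counting error only. No cells that should lack these genes are known in either culture, so the free-RNA background was not estimated, and low shares of cells with a UMI may be background.

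The label was checked against cell type markers, where higher means past 1 on the log2 scale in the ratio of CPM. Only markers seen in 1% or more of the cells of either library, each cell cut to 10500 UMIs, were compared. Markers of PCs were few in both libraries and fewer in PC20, so the cells are called by their passage. *Col1a2* and *Pdgfra*, both fibroblast markers, were near 0 in PC20, which held epithelial markers. Whether the cells of the libraries are of 1 cell type cannot be told from 1 library each, and this bears on every ratio given here. The marker lists moved with the genes described below, and their part in those results was not tested. Of the 10 PC markers, 5 were compared, of which 4 were higher in PC5 and none in PC20. The summed level of the 10 was 65.2 and 10.1 CPM. *Pdgfrb* was at 44.6 and 5.43 CPM, and *Cspg4* at 5.55 and 0.099 CPM. *Anpep* was at 1.93 and 3.00 CPM, and *Rgs5* (405 UMIs in PC5) was listed at 0 in PC20. *Abcc9* had 1 UMI in each library, *Kcnj8* and *Vtn* had 13 and 20 UMIs in PC5 and 0 in PC20, *Higd1b* had 1 and 0, and *Atp13a5* had 0 in both. All 6 fibroblast markers were higher in PC5, at a summed 3614 and 107 CPM, and *Lum* had 0 UMIs in PC20. Of the 7 epithelial and choroid plexus markers, 4 were compared and all 4 were higher in PC20. The summed level of the 7 was 0.61 and 1382 CPM. *Krt18*, a keratin of simple epithelia, was at 0.134 and 913 CPM. Of 6 endothelial markers (199 and 74.1 CPM), 3 were compared, with 2 higher in PC5 and 1 in PC20. Of 6 astrocyte markers (166 and 328 CPM), 4 were compared, with 1 higher in each library. The 6 smooth muscle markers summed to 301 and 64.7 CPM, and 1 of the 3 compared was higher in PC5. The 6 neuronal markers summed to 53.0 and 5.23 CPM and the 6 microglial markers to 4.05 and 0.80 CPM. In each of these lists only 1 marker was compared, and it was higher in PC5. The 6 oligodendrocyte lineage markers summed to 4.95 and 5.31 CPM, with 2 compared and none past the limit.

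TGF-β family ligands are secreted dimers that bind pairs of type I and type II serine/threonine kinase receptors. TGF-βs and activins signal mainly through SMAD2 and SMAD3, and BMPs mainly through SMAD1, SMAD5 and SMAD9, each with the shared SMAD4. SMAD6 and SMAD7 inhibit the pathway, and the ID proteins are BMP-induced inhibitors of basic helix-loop-helix transcription factors. In brain vessels the pathway acts between endothelial cells and PCs and controls PC differentiation and matrix production.

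The 250 bases before the RefSeq start are shown for 3 genes that were higher in PC20 and 2 that were higher in PC5, picked by hand. Other genes with a window had a larger log2 ratio of CPM, PC5 over PC20, than *Tgfbr2* (3.17) and *Id3* (1.89). These were *Inhbb* (7.74), *Gdf11* (4.29) and *Bmp6* (3.79). The sequences are from RefSeq on GRCm38.p6, read 5′ to 3′ on the gene's strand. In GENCODE M21, another annotation, *Id3* starts earlier, at chr4:136143497, so the *Id3* window lies within the gene there. In RefSeq *Gdf15* has 2 entries and the first is shown. Capitals mark GGCGCC, the GC-rich SMAD motif, and CAGAC, the short SMAD motif, on either strand.
*Gdf15* (chr8:70632457-70632706, minus strand): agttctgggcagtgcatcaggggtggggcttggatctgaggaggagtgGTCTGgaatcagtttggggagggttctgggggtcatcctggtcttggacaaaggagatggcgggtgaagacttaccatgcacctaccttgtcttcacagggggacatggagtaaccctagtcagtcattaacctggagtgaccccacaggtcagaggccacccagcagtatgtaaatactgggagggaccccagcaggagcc
*Bmp4* (chr14:46390670-46390919, minus strand): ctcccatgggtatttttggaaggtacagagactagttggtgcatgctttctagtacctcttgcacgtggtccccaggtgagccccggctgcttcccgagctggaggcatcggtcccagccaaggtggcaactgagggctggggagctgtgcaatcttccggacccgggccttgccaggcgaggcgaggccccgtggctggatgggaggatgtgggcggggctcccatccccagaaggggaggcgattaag
*Id4* (chr13:48260866-48261115, plus strand): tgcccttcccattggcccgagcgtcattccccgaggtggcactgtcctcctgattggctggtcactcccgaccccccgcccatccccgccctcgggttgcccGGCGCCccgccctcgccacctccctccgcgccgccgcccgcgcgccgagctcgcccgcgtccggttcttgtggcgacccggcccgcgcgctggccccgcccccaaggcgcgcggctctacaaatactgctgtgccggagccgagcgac
*Id3* (chr4:136143572-136143821, plus strand): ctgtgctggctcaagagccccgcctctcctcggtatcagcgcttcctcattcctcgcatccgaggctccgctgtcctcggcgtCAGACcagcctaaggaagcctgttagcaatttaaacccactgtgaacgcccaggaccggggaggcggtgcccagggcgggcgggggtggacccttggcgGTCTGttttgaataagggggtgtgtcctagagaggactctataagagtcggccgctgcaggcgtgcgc
*Tgfbr2* (chr9:116175364-116175613, minus strand): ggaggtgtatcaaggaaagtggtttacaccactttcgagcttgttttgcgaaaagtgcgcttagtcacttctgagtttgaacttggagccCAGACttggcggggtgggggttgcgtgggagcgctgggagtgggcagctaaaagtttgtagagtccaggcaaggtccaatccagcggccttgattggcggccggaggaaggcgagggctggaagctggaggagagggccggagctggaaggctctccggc
The *Id4* window held GGCGCC, those of *Gdf15* and *Tgfbr2* held CAGAC 1 time each, *Id3* held it 2 times, and *Bmp4* held neither. GGCGCC occurred in 9.59% and CAGAC in 42.2% of the 32851 RefSeq promoter windows of this length. For 22 of the 30 members compared below, 26 windows were found, since some genes have more than 1. Of these 22 genes, 6 (27.3%) held GGCGCC and 8 (36.4%) held CAGAC in any window. These shares are of genes and those of all promoters are of single windows, so they are not of like units. Windows with GGCGCC belonged to *Bmpr1a*, *Bmpr2*, *Id2*, *Id4*, *Smad5* and *Tgfbr1*, whose levels lay on either side of equality between the libraries. TGATGNAA, the ATF4 and C/EBP composite motif, and TGANTCA, the AP-1 motif, were in none of the 22 members' windows and in 3.45% and 6.75% of all windows. A match of these letters is a description of the window and not a binding site.

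Cells were thinned to 10500 UMIs each, which left out 1103 shallower PC5 and 275 shallower PC20 cells. The 30 of 51 genes that were seen in 1% or more of the thinned cells of either library were compared. A gene was counted as higher in a library when its log2 ratio of CPM, PC5 over PC20, was past 1 in size. In total 13 members were higher in PC5, where 21.6% of the 12290 compared genes were, and 6 were higher in PC20, where 18.9% of all were. The other 11 lay within that limit. Together 63.3% of compared members were past it, beside 40.5% of all compared genes, and the median log2 ratio was 0.62 beside 0.04. The receptors and ligands held most of these differences. Of 9 compared receptors, 6 were higher in PC5 and 1 in PC20, and of 10 compared ligands, 6 and 3. Of 11 compared effectors, 1 was higher in PC5 and 2 in PC20. The plot of levels by role shows both libraries for each gene.

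**Figure D1:**
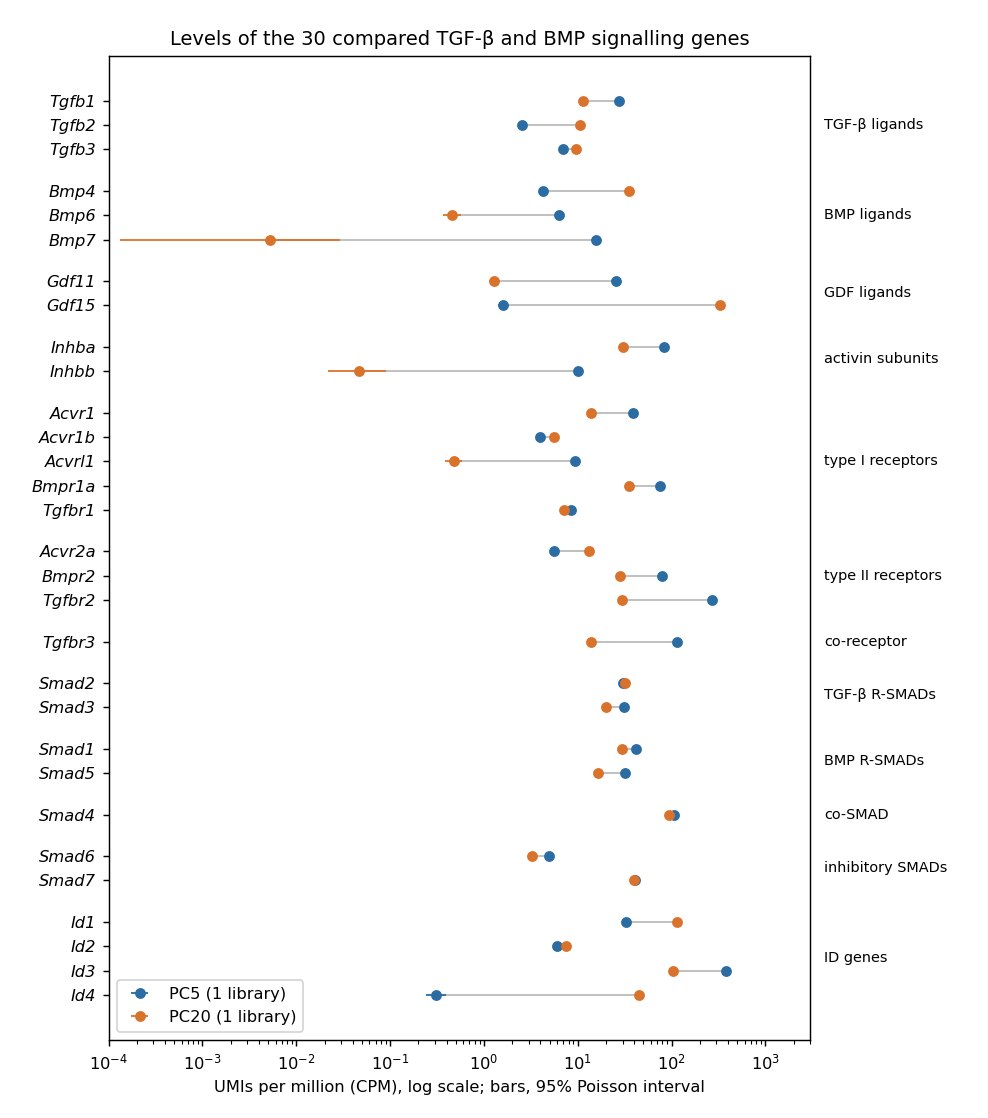
Levels of the 30 compared genes in PC5 (blue) and PC20 (orange), in CPM on a log scale, grouped by role, with 95% Poisson intervals and 1 library per passage. The SMAD genes of the libraries lie within 1.92-fold of each other, whereas *Bmp7*, *Inhbb*, *Gdf15* and *Id4* lie at least 145-fold apart.

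The TGF-β ligands had similar summed levels but a different composition. *Tgfb1*, the isoform most widely made by mesenchymal and immune cells, was at 27.8 CPM in PC5 and 11.3 in PC20 (log2 ratio 1.30, interval 1.23 to 1.37). *Tgfb2* was at 2.56 and 10.5 CPM (log2 ratio −2.04, −2.18 to −1.90), and *Tgfb3* at 6.98 and 9.48 CPM (log2 ratio −0.44). *Tgfb1* was thus the higher isoform gene in PC5, while the 3 genes lay near each other in PC20. *Tgfb1* held 74.4% (73.5 to 75.4) of the UMIs of the 3 genes in PC5 and 36.1% (34.9 to 37.3) in PC20, and *Tgfb2* held 6.86% and 33.6%. Their summed level was 37.3 CPM in PC5 and 31.3 CPM in PC20.

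The BMP ligands showed a near exchange of members. *Bmp7* had 3507 UMIs in PC5, at 15.7 CPM, and 1 UMI in PC20 (log2 ratio 11.55, 9.07 to 16.86). *Bmp6* was at 6.35 CPM in PC5 and 0.46 in PC20 (log2 ratio 3.79). *Bmp4*, a ligand used widely in mesodermal patterning, was at 4.25 CPM in PC5 and 35.3 in PC20 (log2 ratio −3.05, −3.15 to −2.96). *Bmp7* and *Bmp6* were the leading BMP genes in PC5, and *Bmp4* was nearly alone in PC20. *Bmp7* held 55.5% and *Bmp4* 15.0% of the UMIs of the 10 BMP genes in PC5, whereas *Bmp4* held 95.9% in PC20. The summed BMP level was 28.3 CPM in PC5 and 36.8 in PC20, so the sum hid a difference of 8.31-fold or more in each of the 3 compared genes. *Bmp2* had 292 and 63 UMIs and missed the limit for comparison, with a UMI in 0.98% of thinned PC5 cells. *Bmp8a* (109 and 126 UMIs) and its close paralog *Bmp8b* (38 and 2 UMIs) may share reads and are uncertain.

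**Figure D2:**
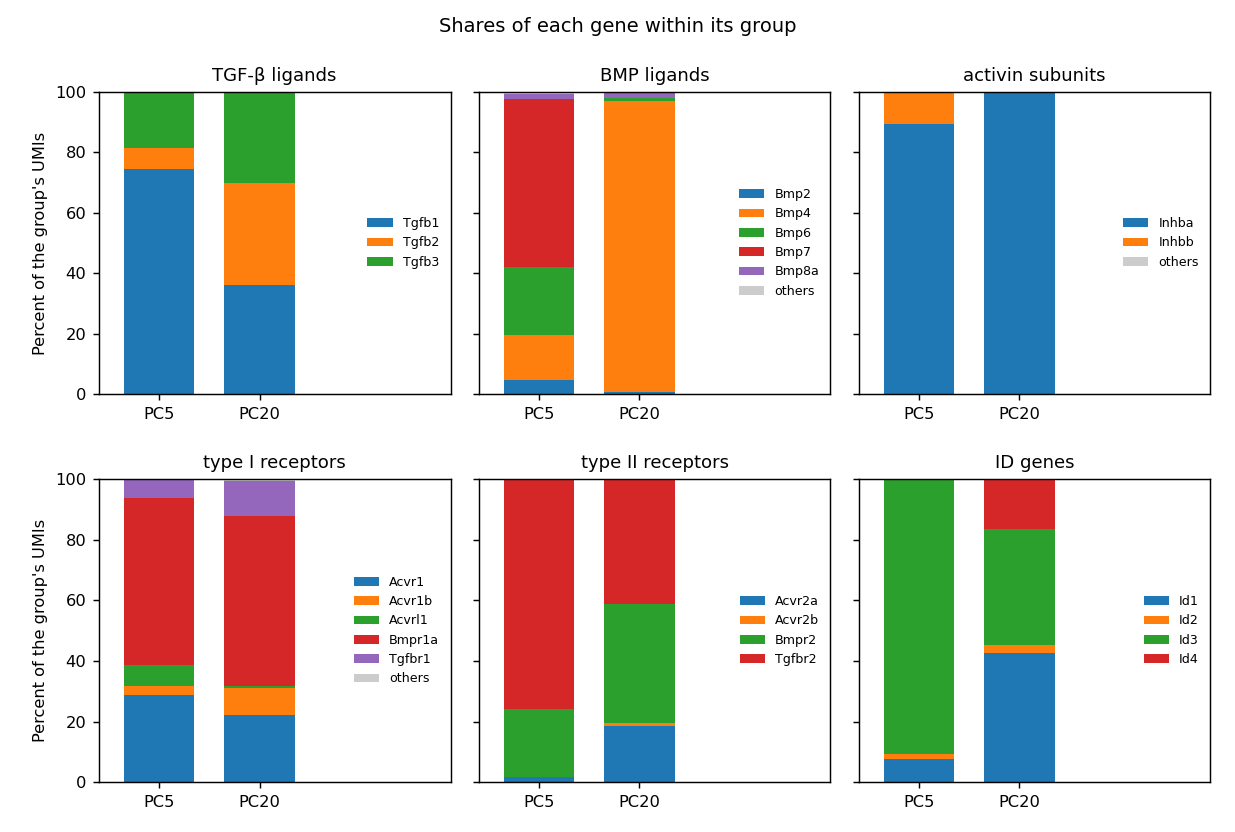
Percent of each group's UMIs held by each gene, in PC5 and PC20, for 6 groups of ligands, receptors and ID genes. The leading gene differs between the libraries for the BMP ligands and the ID genes, while *Inhba* and *Bmpr1a* lead their groups in both.

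Of the GDF genes, *Gdf15* and *Gdf11* stood at opposite ends. *Gdf15*, a stress-induced ligand that signals through a receptor outside this family, was at 326 CPM (324 to 329) in PC20 but only 1.59 CPM (1.43 to 1.76) in PC5, a 206-fold difference (log2 ratio −7.68, −7.84 to −7.53). It was found in most PC20 cells, with a UMI in 86.4% of thinned cells (93.7% before thinning), against 1.20% (2.44%) in PC5. *Gdf11*, which acts through activin receptors and SMAD2 and SMAD3, was at 25.4 CPM in PC5 and 1.29 in PC20 (log2 ratio 4.29, 4.11 to 4.48). *Gdf15* therefore held almost all of the summed GDF level of PC20, which was 328 CPM and 1.68 CPM without it. The same sums in PC5 were 27.3 and 25.8 CPM. Both activin subunit genes compared were higher in PC5. *Inhba*, which encodes the subunit of activin A, was at 84.0 CPM in PC5 and 30.7 in PC20 (log2 ratio 1.45). *Inhbb*, which encodes the subunit of activin B, was at 10.1 CPM in PC5, with 9 UMIs in PC20 (log2 ratio 7.74, 6.81 to 8.87).

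The receptors were mostly higher in PC5, with the highest log2 ratios for *Acvrl1*, *Tgfbr2* and *Tgfbr3*. *Tgfbr2*, the type II receptor gene of TGF-β, had a level of 268 CPM (266 to 270) in PC5, against 29.7 (28.9 to 30.5) in PC20 (log2 ratio 3.17, 3.13 to 3.21). *Tgfbr3*, which encodes the co-receptor betaglycan, was at 115 and 13.9 CPM (log2 ratio 3.05). *Tgfbr1*, the type I partner of *Tgfbr2*, was at 8.44 and 7.18 CPM (log2 ratio 0.23). The TGF-β receptor genes thus differed among themselves, since the type II gene and the co-receptor gene stood apart between the libraries and the type I gene was within the limit.

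Among the other type I genes, *Acvrl1*, which encodes the BMP9 and BMP10 receptor ALK1 known mainly from endothelium, was at 9.27 CPM in PC5 and 0.48 in PC20 (log2 ratio 4.28). *Acvr1* was at 38.7 and 13.8 CPM (log2 ratio 1.49), and the BMP receptor gene *Bmpr1a* at 74.4 and 34.8 CPM (log2 ratio 1.09). *Acvr1b*, the activin type I gene, was at 3.95 and 5.54 CPM (log2 ratio −0.49). The 3 BMP type I genes that could be compared were therefore higher in PC5, and the activin gene was not. Of the type II genes, *Bmpr2* was at 79.0 and 28.1 CPM (log2 ratio 1.49). *Acvr2a*, the activin type II gene, was the only compared receptor gene higher in PC20, at 5.58 and 13.3 CPM (log2 ratio −1.25, −1.35 to −1.15). Summed over type II genes, the level was 353 CPM in PC5 and 71.9 in PC20, and over type I genes it was 135 and 62.3 CPM. *Tgfbr2* held 75.8% of type II UMIs in PC5 and 41.3% in PC20, while *Bmpr1a* held 55.2% and 56.0% of type I UMIs. *Bmpr1b* (8 and 78 UMIs), *Acvr2b* (187 and 154 UMIs) and *Acvr1c* (8 and 3 UMIs) were too low to compare.

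**Figure D3:**
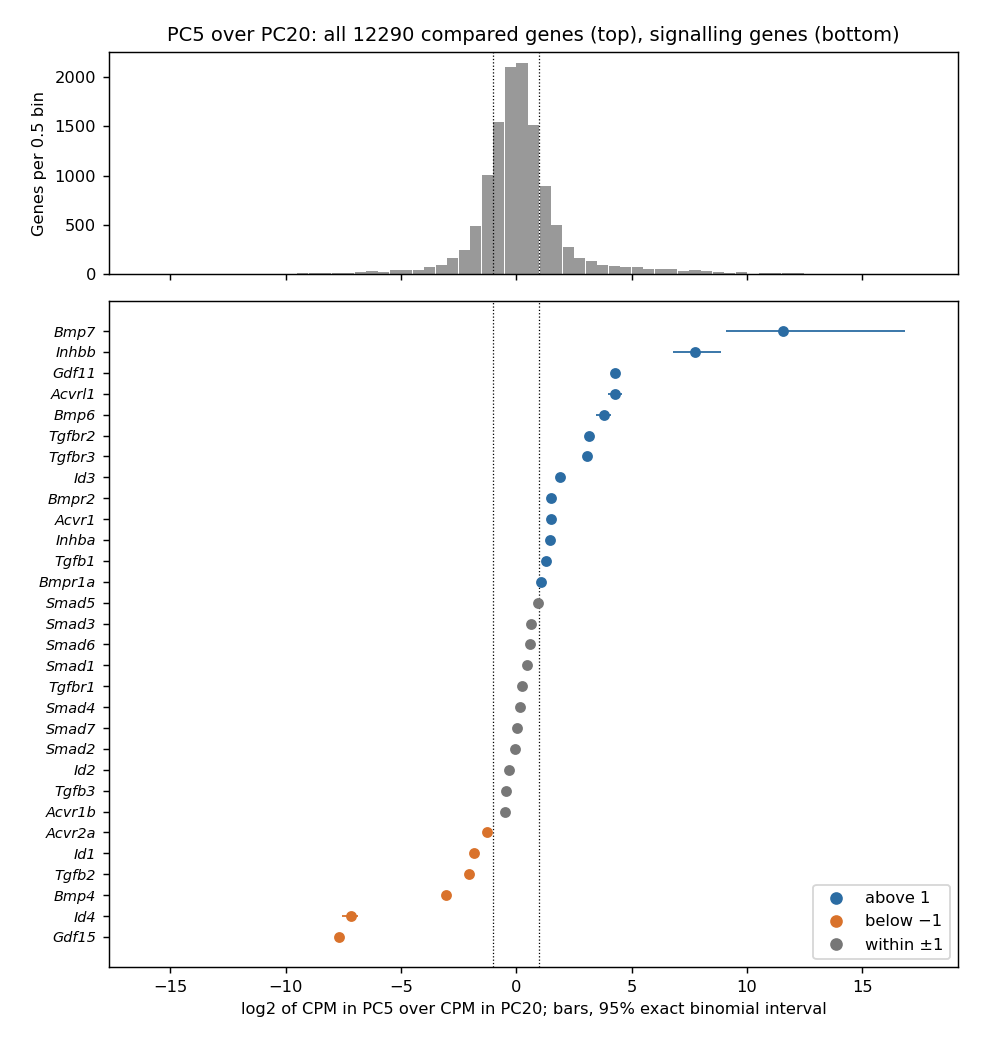
Log2 ratio of CPM in PC5 over PC20 for the 30 compared genes with exact binomial intervals (bottom), under the distribution of all 12290 compared genes (top); dotted lines mark −1 and 1. *Bmp7* (11.55) and *Inhbb* (7.74) lie farthest to the right and *Gdf15* (−7.68) and *Id4* (−7.18) farthest to the left, while the SMAD genes lie between −0.07 and 0.94.

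The 7 compared SMAD genes lay between −0.07 and 0.94 on the log2 scale. *Smad4*, the shared partner, was at 107 CPM in PC5 and 94.5 in PC20 (log2 ratio 0.18). *Smad2* was at 30.3 and 31.8 CPM (log2 ratio −0.07) and *Smad3* at 30.8 and 19.9 CPM (log2 ratio 0.63). None of the SMAD genes passed the limit of 1. The intervals of *Smad1*, *Smad3*, *Smad4*, *Smad5* and *Smad6* nevertheless lay above 0, and that of *Smad2* (−0.12 to −0.02) lay below 0. *Smad1* was at 41.4 and 29.7 CPM (log2 ratio 0.48), and *Smad5* was nearest to the limit, at 31.7 and 16.5 CPM (log2 ratio 0.94, 0.88 to 1.00). The inhibitory *Smad7* was at 40.8 and 40.0 CPM (log2 ratio 0.03, −0.01 to 0.08) and *Smad6* at 4.97 and 3.27 CPM (log2 ratio 0.60). *Smad9* had 118 and 24 UMIs and was not compared.

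The ID genes, in contrast, parted ways within a family of close paralogs. *Id3* had a level of 382 CPM (380 to 385) in PC5, against 103 (102 to 105) in PC20 (log2 ratio 1.89, 1.87 to 1.91). *Id1* was at 32.6 and 115 CPM (log2 ratio −1.82, −1.86 to −1.78). *Id4* had 69 UMIs in PC5, at 0.31 CPM, and was at 44.9 CPM in PC20 (log2 ratio −7.18, −7.54 to −6.84), a 145-fold difference. *Id2* was low in both, at 6.05 and 7.53 CPM (log2 ratio −0.32). PC5 therefore held mainly *Id3*, with 90.8% of ID UMIs, and PC20 held *Id1* (42.5%), *Id3* (38.1%) and *Id4* (16.6%). The summed ID level was 421 CPM in PC5 and 270.5 in PC20. *Id4* lies at chr13:48261228-48266026 and overlaps 2 genes on the opposite strand. Such an overlap held for 12 of the 30 compared genes, *Bmp4*, *Bmp6*, *Tgfb2*, *Tgfb3* and *Inhba* among them, and whether counting used strand is not given in the sources used here. An overlap on the same strand, which matters in either case, held for 4 of the 30, *Smad5*, *Acvr1b*, *Bmpr2* and *Tgfbr3*. *Gdf15*, *Id1*, *Id3*, *Bmp7*, *Inhbb* and *Tgfbr2* overlapped no other annotated gene.

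Within each library, the genes differed in how evenly cells carried them. In PC5, *Id3* had a median of 4 UMIs per thinned cell, and only 5.44% of cells had none. In PC20, 58.9% of cells had no *Id3* UMI, whereas 5.50% had 5 or more and the highest cell had 47. The variance over the mean was 1.98 in PC5 and 5.04 in PC20, beside 1.64 and 1.15 for genes of like mean. Before thinning, 96.3% of PC5 and 64.6% of PC20 cells had an *Id3* UMI. *Gdf15* in PC20 had a median of 3 UMIs per cell, none in 13.6% of cells and 5 or more in 26.1%, with a variance over the mean of 3.79 beside 1.36. For *Id1* in PC20 this value was 2.16 beside 1.16. In PC5 the most uneven of the better counted genes were *Tgfbr2* (2.21 beside 1.44), *Inhba* (1.99 beside 1.14) and *Bmp7* (1.98 beside 1.04). A thinned PC5 cell held a median of 8 of the 51 genes and 16 of their UMIs, and a PC20 cell 6 genes and 10 UMIs.

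**Figure D4:**
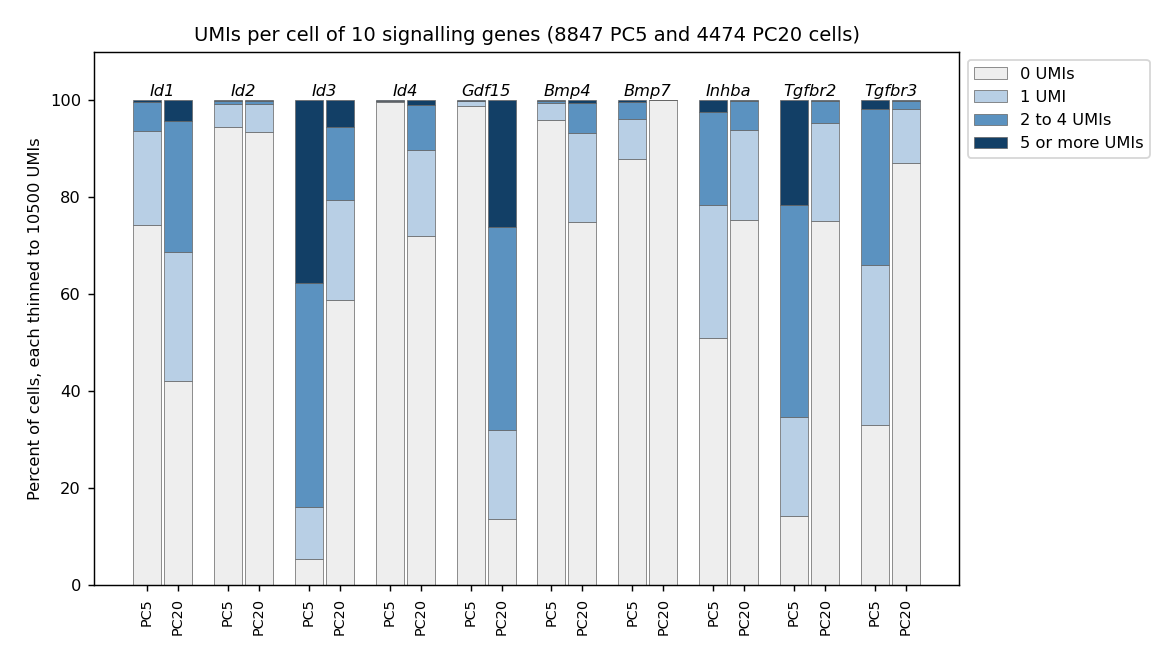
Percent of cells with 0, 1, 2 to 4, or 5 or more UMIs of 10 signalling genes, in 8847 PC5 and 4474 PC20 cells that were each thinned to 10500 UMIs. *Id3* and *Tgfbr2* reach 5 UMIs in 37.6% and 21.6% of PC5 cells, and *Gdf15* does so in 26.1% of PC20 cells.

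Cells were next clustered within each library without using the 51 genes, which gave 14 clusters in PC5 and 15 in PC20. None was given a cell type, and clusters are named by their leading genes. In PC20 cluster 8 (253 cells, with *Bgn* and *Cdo1* among its leading genes), *Bmp4* was at 122 CPM (116 to 129), *Id3* at 312, *Id1* at 199.6 and *Tgfb3* at 40.7 CPM. All 4 were at their highest there among these PC20 clusters, though *Id3* was not with resolution 0.4. That cluster held 5.33% of PC20 cells but 21.0% of *Bmp4*, 26.1% of *Tgfb3* and 18.4% of *Id3* UMIs. *Acvrl1*, between 0 and 1.91 CPM in the other PC20 clusters, was at 4.13 CPM in it, with 52.7% of the library's *Acvrl1* UMIs. *Gdf15* was lowest there among the PC20 clusters that were not shallow, at 213 CPM.

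*Id4* was highest in PC20 cluster 5 (314 cells, led by *Sult1a1* and *Ogn*), at 95.4 CPM, where *Id3* was at 240 CPM. *Gdf15* was highest in PC20 cluster 4 (297 cells, led by *Nfkbia* and histone genes), at 603 CPM (589 to 617). *Tgfb2* (37.5 CPM), *Tgfbr3* (49.8 CPM) and *Smad3* (47.7 CPM) were highest in PC20 cluster 12 (74 cells, with *Selenop* among its leading genes). Among the clusters that were not shallow, *Tgfb1*, *Tgfbr1*, *Acvr1*, *Acvr2a*, *Bmpr1a*, *Bmpr2*, *Smad5* and *Smad7* were also highest in it. Some of these ranks lay within counting error. *Acvr2a* was at 16.6 CPM (11.8 to 22.7) in it and 16.5 CPM in cluster 2. *Tgfbr1* was at 9.80 CPM (6.21 to 14.7) in it and 8.81 CPM in cluster 6. Of the ligand and ID genes that were higher in PC20, *Bmp4* and *Id1* were thus highest in 1 cluster and *Gdf15*, *Tgfb2* and *Id4* in 3 others. With resolution 0.4, by contrast, *Tgfb2* (32.2 CPM), *Tgfbr3* (33.8 CPM), *Smad3* (38.2 CPM) and *Id4* (97.9 CPM) were all highest in the cluster led by *Lcn2* and *Sult1a1*. So were *Id3* (356 CPM), *Tgfb1* and *Bmpr2*, whereas *Bmp4*, *Id1* and *Tgfb3* stayed highest in the cluster led by *Bgn* and *Cdo1*. At this resolution *Acvr1*, *Acvr2a*, *Bmpr1a* and *Smad7* were also highest in the *Bgn* and *Cdo1* cluster, and *Tgfbr1* and *Smad5* each in a different one.

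In PC5, cluster 2 (800 cells, led by *Trf*, *Ccl11* and *Mmp3*) had *Bmp7* at 69.6 CPM (65.3 to 74.0), with a median of 9.20 over the PC5 clusters that were not shallow. It held 8.04% of PC5 cells and 28.6% of *Bmp7* UMIs. *Tgfbr2* (428 CPM), *Tgfbr3* (164 CPM), *Smad3* (51.1 CPM) and *Id3* (448 CPM) were also at their highest in it among those clusters. Among the same clusters, *Inhba* was highest in cluster 9 (1081 cells, led by *Xlr*, *Snhg11* and *Prelp*), at 141 CPM, and so was *Acvrl1*, at 16.9 CPM. In the shallow cluster 11 (122 cells) they were higher, at 148 and 22.1 CPM. The smallest PC5 cluster, cluster 14, with 107 cells led by *Mt3*, *Igfbp2*, *Atf3* and *Gfap*, held more than its share of several members. It held 1.08% of PC5 cells, but 26.1% of *Id4* (18 of 69 UMIs), 13.7% of *Tgfb2* and 12.4% of *Gdf15* UMIs, all low in PC5. *Tgfb2* was at 45.9 CPM, *Gdf15* at 25.9 CPM and *Id4* at 10.6 CPM in it. It also held 3.85% of *Id2*, 2.27% of *Inhbb* and 1.65% of *Id1* UMIs. Among the PC5 clusters that were not shallow, these were highest in it, at 30.6, 30.0 and 70.6 CPM. *Bmp4*, also low in PC5, had 0.95% of its UMIs there, at 5.30 CPM (9 UMIs, 2.42 to 10.1) beside 4.24 CPM in the rest of PC5. Of the 6 astrocyte markers, *Gfap* was at 49.4 CPM in it and 0.059 in the rest of PC5, and *Aldoc* at 107 and 9.19 CPM. *Gfap* had a UMI in only 10.3% and *Aldoc* in 16.8% of its cells. Of these 6, 5 were higher in it than in the rest and *Slc4a4* was not (125 and 144 CPM). Markers of other lists went both ways. *Olig1* (40.6 and 0.009 CPM), *Cspg4* (12.9 and 5.49 CPM) and *Tagln* (277 and 219 CPM) were higher in it. *Pdgfrb* (26.5 and 44.7 CPM) and *Col1a2* (816 and 1744 CPM) were lower. The part of all these markers in its levels was not tested. Without this cluster, which was singled out after its levels were seen, the log2 ratios were −7.61 for *Id4*, −7.86 for *Gdf15* and −2.24 for *Tgfb2*.

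**Figure D5:**
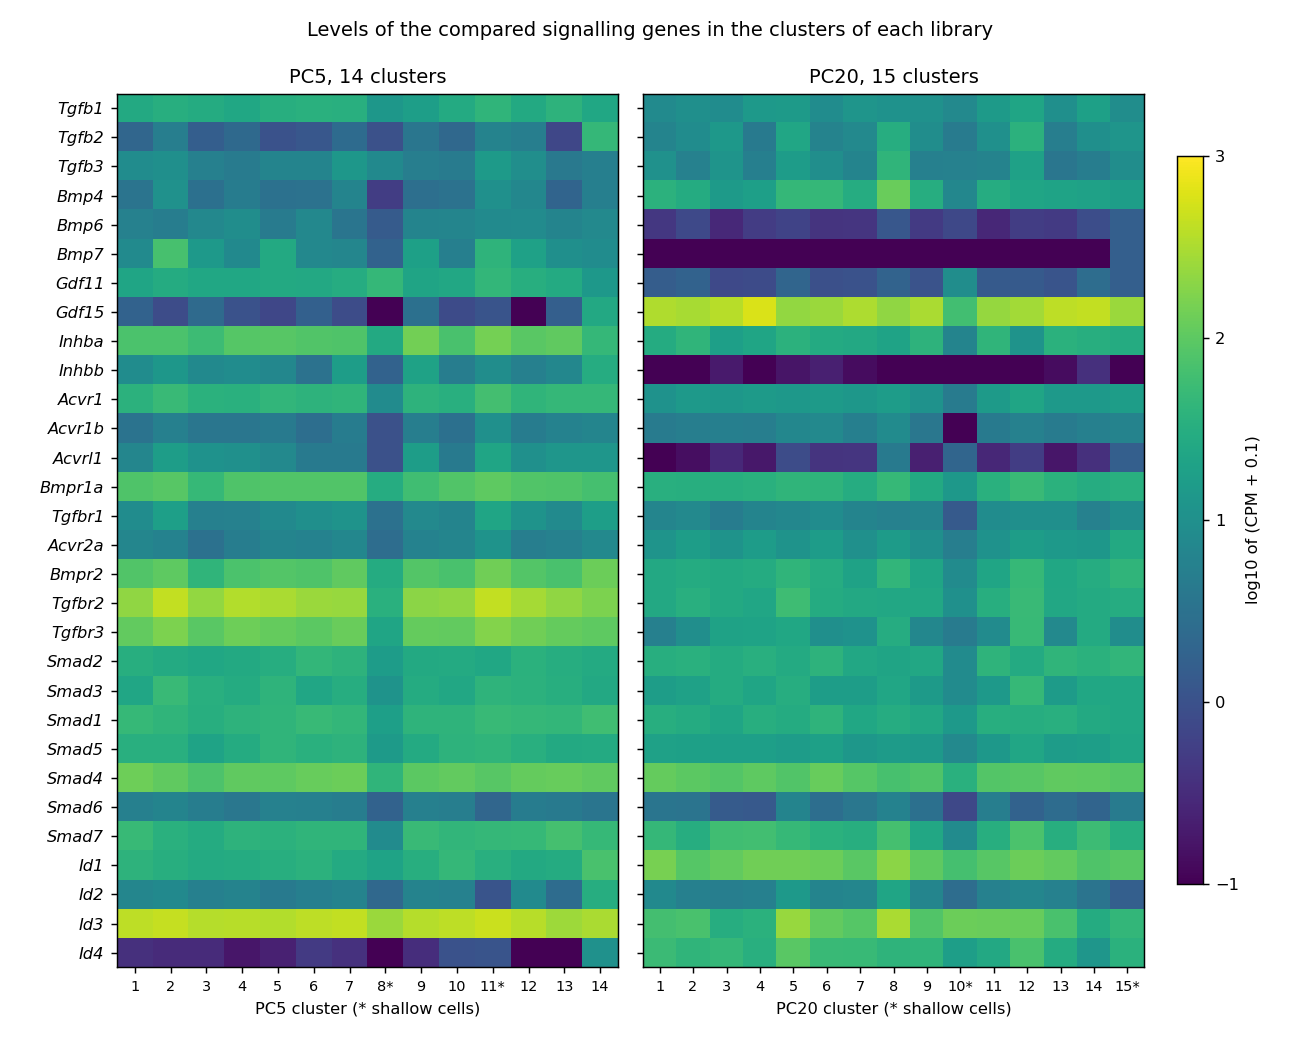
Levels of the 30 compared genes in the 14 PC5 and 15 PC20 clusters, as log10 of CPM plus 0.1; an asterisk marks clusters whose median depth was under 33.3% of their library's. *Gdf15* is high across PC20 and *Bmp7* is near 0 in it, while *Bmp4* peaks in PC20 cluster 8 and *Id4* and *Gdf15* appear in PC5 cluster 14.

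The lowest to highest cluster levels did not overlap between the libraries for 5 of the 30 genes, beside 12.3% of all compared genes (8.11% above in PC5 and 4.18% above in PC20). *Bmp7*, *Gdf11* and *Inhbb* were above in every PC5 cluster, and *Gdf15* and *Id4* in every PC20 cluster. The intervals of the closest clusters overlapped for *Bmp7*, *Gdf11*, *Inhbb* and *Id4*, and not for *Gdf15*. In its lowest PC5 cluster *Bmp7* had 4 UMIs (0.48 to 4.46 CPM), beside 1 UMI (0.038 to 8.37 CPM) in its highest PC20 cluster. For *Inhbb* these were 4 UMIs (0.48 to 4.46 CPM) and 2 UMIs (0.031 to 0.94 CPM). *Id4* reached 10.6 CPM (6.28 to 16.7) in PC5 and was lowest in PC20 at 12.4 CPM (10.1 to 15.2). With coarser clusters (resolution 0.4 in place of 0.8) the *Id4* ranges overlapped, at 0 to 13.1 CPM in PC5 and 8.99 to 97.9 CPM in PC20, and *Bmp6* was above in every PC5 cluster. That left 4 genes above in PC5, beside 8.4% of all compared genes, and 1 above in PC20, beside 4.83%. The PC5 clusters had *Gdf15* between 0 and 25.9 CPM and the PC20 clusters between 60.4 and 603 CPM. Each library had 2 clusters whose median depth was under 33.3% of its own median, with 455 PC5 and 231 PC20 cells. Without them, the ranges did not overlap for 14 of the 30, with 9 above in PC5 and 5 above in PC20, beside 16.6% and 10.9% of all compared genes. The genes added were *Bmp6*, *Inhba*, *Acvr1*, *Acvrl1*, *Tgfbr2* and *Tgfbr3* above in PC5, and *Id1*, *Bmp4* and *Acvr2a* above in PC20. Clusters of 1 library share that library, so these counts are a description of it.

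Cells with and without a UMI of 2 division-cycle genes were compared within each library. Thinned cells with a UMI of *Mki67* or *Top2a*, which mark the division cycle, made up 35.4% of PC5 and 57.9% of PC20 (45.0% and 72.2% before thinning). Thinning removed such UMIs from some cells, so the cells without one are not all out of the cycle. Among the 29 members in PC5 and 25 in PC20 with 100 or more UMIs in thinned cells, none differed past 1 on the log2 scale between cells with and without such a UMI, beside 3.81% and 4.33% of all compared genes with as many UMIs. *Bmp7* (11.4 and 21.3 CPM, log2 ratio −0.90) and *Inhbb* (7.73 and 12.4 CPM, −0.68) were lower in PC5 cells with one, as was *Bmp4* (3.71 and 4.96 CPM, −0.42). In PC20, *Tgfb2* (8.38 and 12.8 CPM, −0.61) and *Tgfb3* (7.68 and 11.6 CPM, −0.60) were lower and *Smad2* (35.8 and 27.6 CPM, 0.38) was higher in them. *Gdf15* was at 353 and 291 CPM in the 2 kinds of PC20 cell.

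Other genes of the pathway were read from lists by their role, beginning outside the cell. Of 25 compared extracellular modulators, 18 (72.0%) were higher in PC5, beside 21.6% of all compared genes, and 4 (16.0%) in PC20, beside 18.9%, with a median log2 ratio of 2.10. *Lrrc32*, which anchors latent TGF-β to the cell surface, was at 54.3 and 0.11 CPM, and *Dcn*, a proteoglycan that binds TGF-β, at 51.3 and 0.17 CPM. *Dcn* is also on the list of fibroblast markers. *Fstl1*, a secreted follistatin-like protein gene, was at 635 CPM in PC5 and 15.4 in PC20. The activin and BMP antagonist gene *Fst* was higher in PC20, at 12.4 and 66.4 CPM (log2 ratio −2.42), as was *Ltbp3*, a latent TGF-β binding protein gene, at 24.7 and 72.8 CPM (−1.56). *Fstl3*, another activin antagonist gene, was at 19.0 and 23.2 CPM.

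Of 12 compared co-receptor and membrane modulator genes, 6 were higher in PC5, beside 21.6% of all compared genes, and 1 in PC20, beside 18.9%, with a median log2 ratio of 0.85. *Eng*, which encodes the BMP9 co-receptor endoglin, was at 96.9 and 2.73 CPM (log2 ratio 5.15). *Rgmb*, a BMP co-receptor gene, was at 114 and 9.38 CPM, and *Pmepa1*, a TGF-β-induced feedback inhibitor, at 134 and 12.1 CPM. *Bambi*, which encodes a pseudoreceptor, was higher in PC20, at 2.30 and 11.6 CPM (log2 ratio −2.33), and *Cd109* was at 44.9 and 53.5 CPM. Both *Eng* and *Acvrl1*, which form 1 receptor complex, were thus higher in PC5. Of 25 compared intracellular modulator genes, 3 were higher in PC5 and 5 in PC20, near or below the shares of all compared genes (21.6% and 18.9%), with a median of 0.08. The SMAD corepressor gene *Skil* was at 47.3 and 19.1 CPM (log2 ratio 1.31) and *Map3k7*, the TAK1 kinase gene, at 38.1 and 19.0 CPM (1.00), whereas *Zeb1* was at 65.2 and 37.0 CPM (0.82). *Hipk2* (14.6 and 50.5 CPM, −1.79), *Trim33* (19.9 and 49.8 CPM, −1.32) and *Runx1* (59.1 and 136 CPM, −1.20) were higher in PC20.

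Textbook targets of TGF-β were mainly higher in PC5. Leaving out members, 15 of 24 compared targets were higher in PC5, beside 21.6% of all compared genes, and 1 in PC20, beside 18.9%, with a median log2 ratio of 2.18. The matrix genes *Col1a2* (1737 CPM in PC5, 9 UMIs in PC20) and *Postn* (80.9 CPM, 2 UMIs) stood farthest apart, with log2 ratios of 15.17 (14.25 to 16.30) and 12.92 (11.06 to 15.96). *Col1a2*, *Col1a1* and *Col3a1* of this list are also among the 6 fibroblast markers, all of which were higher in PC5, and their part in this count was not tested. *Cdkn2b*, a cell-cycle inhibitor gene, was at 70.0 CPM in PC5 with 0 UMIs in PC20, which is at least 12.12 higher on the log2 scale when set against 3 UMIs. *Bhlhe40* was higher in PC20, at 35.4 and 85.1 CPM (log2 ratio −1.26). *Snai2*, a transcription factor gene, was at 31.0 and 55.3 CPM (−0.83). Of 15 compared textbook BMP targets, members left out, 9 (60.0%) were higher in PC5, beside 21.6% of all compared genes, and 4 (26.7%) in PC20, beside 18.9%, with a median of 1.59. *Stmn2* (52.6 and 0.084 CPM), *Gata2* (15.4 and 1.25 CPM) and *Hes1* (50.4 and 12.0 CPM) were higher in PC5, and *Msx1* (7.92 and 27.6 CPM, −1.80) in PC20. *Bambi*, given above among the membrane modulators, is also on this list and was higher in PC20 (−2.33). *Hes1* is also on the list of ID partners given below, and the TGF-β targets share a gene with the extracellular modulators. The counts of these lists are therefore not separate.

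The other 21 of the 51 genes were near or at 0 in both libraries. *Bmp10*, *Gdf1*, *Gdf2*, *Gdf7* and *Inhbc* had 0 UMIs in both, which allows up to 0.0302% of PC5 and 0.0632% of PC20 cells to carry a UMI. *Gdf5* had 39 and 32 UMIs and *Gdf9* 36 and 40. *Bmp3* (7 and 10), *Bmp5* (0 and 1), *Bmp15* (6 and 0), *Gdf3* (1 and 0), *Gdf6* (3 and 2), *Gdf10* (8 and 0) and *Inhbe* (3 and 0) had 10 UMIs or fewer in each library. The ligands that bind *Acvrl1* with highest affinity, BMP9 (encoded by *Gdf2*) and BMP10, were thus not detectable at this depth in cells that carried the receptor gene.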

How the data were processed

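Cultured mouse brain PCs were measured by droplet-based 3′ single-cell RNA-sequencing, with 1 library per passage. The deposited matrices hold UMI counts for each gene in each barcode, which the authors made with CellRanger 5.0.1 against mm10 (matrix header and labels), with no normalization. Barcodes were the cells the authors' software called, doublets were not removed, and no doublet caller was run. Cells were filtered as in the study's methods. CPM was computed from UMIs summed over kept cells, and log2 ratios carried no pseudocount. Intervals were exact: Poisson for CPM, conditional binomial for ratios and Clopper-Pearson for shares. A count of 0 was set against 3 UMIs per library. Cells were clustered per library with scanpy 1.11.5 and Leiden (2000 variable genes, 15 components, resolution 0.8). Computations used Python 3.11.15 and scipy 1.17.1 and were tested on simulated data. All 51 identifiers were matched in GENCODE M21 (GRCm38), and promoter windows were matched by symbol for 37 of the 51 genes. *Id1* and *Bmp7* had no window.

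The members and lists were chosen with earlier results of these data known. All compared members are named. From each other list, the 3 genes farthest from equality in each direction with at least 10 CPM in the higher library are named, with the PC markers. A gene that this rule names is not reported here. Alternatives changed the cell filter, the cells used (thinned, or lacking *Mki67* and *Top2a* UMIs), the scaling, the detection minimum, the limit on the log2 ratio and the clustering resolution (0.4).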

Additional observations from a re-analysis of the deposited data

How the results depend on the processing

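The counts of 13 members higher in PC5 and 6 higher in PC20 were the same under the stricter cell filter (more than 2000 genes, under 10% mitochondrial UMIs), all barcodes, thinned cells, cells lacking *Mki67* and *Top2a* UMIs, both other scalings, means over cells and both stricter detection minimums, and, as alternatives chosen after seeing the data, without shared barcodes and without PC5 cluster 14. With no filter on low values they were 18 and 7 of 42 members, beside 27.4% and 19.8% of all genes so compared. With a limit of 0.5 on the log2 ratio they were 16 and 6 of 30, beside 33.9% and 31.5%. With a limit of 2 they were 7 and 4 of 30, beside 10.3% and 6.79%, where the stricter limit itself removes genes. The median log2 ratio of members was 0.62 and moved to 0.59 in cells without *Mki67* or *Top2a* UMIs, 0.71 in thinned cells, 0.63 when mitochondrial and ribosomal protein genes were left out of the library size, 0.58 when centred on the median gene and 0.64 with means over cells. No called log2 ratio changed sign. Among genes within the limit, *Smad7* and *Smad2* changed sign in cells without *Mki67* or *Top2a* UMIs and *Smad7* did so when centred. The 1 *Bmp7* UMI of PC20 was lost on thinning and was absent from cells without *Mki67* or *Top2a* UMIs. The *Bmp7* log2 ratio was then a bound, at least 8.12 and at least 8.04. Over all alternatives its value lay between 7.63 and 11.57, with such bounds included. No paired analysis was possible because each passage has 1 library.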

Other observations

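Genes of basic helix-loop-helix factors, which ID proteins bind, were mostly higher in PC5. Of 18 listed partners of ID proteins, 7 were compared, of which 6 were higher in PC5, beside 21.6% of all compared genes, and none in PC20, beside 18.9%, with a median log2 ratio of 1.82. *Tcf4* was at 767 CPM in PC5 and 217 in PC20 (log2 ratio 1.82), *Tcf12* at 141 and 55.0 CPM (1.36), and *Hes1* at 50.4 and 12.0 CPM (2.07).

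Receptor genes that act in pairs were found together in cells at shares near, or slightly above, those that their separate shares give. *Bmpr1a* and *Bmpr2* were both found in 29.8% (28.8 to 30.7) of thinned PC5 cells, beside 29.1% if independent, and in 7.15% (6.41 to 7.95) of PC20 cells, beside 7.25%. For *Tgfbr1* and *Tgfbr2* this was 7.03% (6.51 to 7.58) of PC5 cells, beside 6.99%, and 1.72% (1.36 to 2.15) of PC20 cells, beside 1.83%. *Tgfbr2* and *Tgfbr3* were both found slightly above the independent share, in 58.7% (57.7 to 59.7) of PC5 cells, beside 57.6%. In PC20 they were both found in 3.73% (3.20 to 4.33) of cells, beside 3.19%. Their Spearman correlation across PC5 cells was 0.15. In PC20 the highest correlations were between *Id3* and *Bmp4* (0.17) and between *Id3* and *Id1* (0.15), and the lowest was between *Id3* and *Gdf15* (−0.12). These are weak values across cells of 1 library that share its depth, and they are given as a description.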
